A study of Oryctolagus cuniculus with 16 samples.

Results

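ACAN, COL2A1, COL9A1 and SOX9 are genes of cartilage, and they were followed here in tissue scraped from rabbit tibiae 10 days after surgery. They are the 4 rows, of 29587 genes in the deposited table, that carry these symbols; each symbol had 1 row. The tissue came from 4 rabbits with 4 drilled sites each, and every rabbit supplied 1 library to each of 4 groups: a sham site (Sham), a site with a turned, commercially pure titanium implant (Turned Ti), one with a titanium implant whose surface was sandblasted and acid-etched (SLA Ti) and one with a turned copper implant (Turned Cu). No allele or drug distinguished the groups, and all sites were sampled at 10 days. Libraries are named below by group and rabbit, so that Sham 1 is the sham site of rabbit 1. In each group 2 sites were proximal and 2 distal on the tibia. Each library is total RNA of everything the curette took from 1 site, so fewer cells of a type and less RNA per cell cannot be told apart.

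Injured bone can heal by way of cartilage, which forms a callus and is then replaced by bone. Cartilage matrix is a network of thin type II collagen fibrils that carry type IX and type XI collagen, filled with aggrecan, a large proteoglycan whose charged side chains hold water. SOX9 is the transcription factor that commits cells to the chondrocyte lineage and directly activates the aggrecan and type II collagen genes. The type II collagen chain is encoded by COL2A1, an alpha chain of type IX collagen by COL9A1 and the aggrecan core protein by ACAN. Among these 4, COL2A1 and COL9A1 are the more restricted to cartilage, while ACAN and SOX9 are also made at lower levels by other connective tissue cells.

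The gene table places ACAN (ENSOCUG00000022093) on scaffold GL018934 from 63092 to 95251 on the minus strand and COL2A1 (ENSOCUG00000013629) on scaffold GL018949 from 72110 to 94586 on the minus strand. SOX9 (ENSOCUG00000011639) lies on chromosome 19 from 55820163 to 55823755 on the plus strand, and COL9A1 (ENSOCUG00000012367) on chromosome 12 from 56888867 to 56995534 on the minus strand. These are gene spans as deposited, on a build that the sources do not name. Over the 16 libraries the rows held 72748 counts for COL2A1, 28074 for ACAN, 1627 for COL9A1 and 1618 for SOX9. The libraries held 8539984 to 20406474 counts, but only 1019517 to 4353647 after ribosomal RNA and mitochondrial genes. Ribosomal RNA took 65.27% of Sham 2, 49.58% of Turned Ti 4 and 44.83% of SLA Ti 4 against at most 28.4% elsewhere. With ribosomal RNA set aside, the mitochondrial share was highest in Turned Cu 2 (93.88%) and Turned Cu 4 (92.62%). Turned Cu 1 (81.29%) and Turned Cu 3 (74.5%) lay inside the range without copper, from 59.03% in Turned Ti 1 to 85.8% in Sham 3. All 4 genes passed the filter on low counts, although COL9A1 and COL2A1 owe most of their counts to 2 libraries. Levels are given as CPM, which divides counts by the scaled library size, unless RPKM is named. The scaled size was 5124583 to 7853957 in the copper libraries and 7432219 in Sham 2. In the remaining libraries it ran from 12060999 in Turned Ti 4 to 30920097 in Turned Ti 1, so the copper group was the shallowest.

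Aggrecan was detected at every site without copper. ACAN stood at 331.5, 95.4, 170.4 and 76.15 CPM in Sham 1 to 4, and at 29.95, 239.2, 228.7 and 15.5 CPM in Turned Ti 1 to 4. In SLA Ti 1 to 4 it was 13.24, 87.96, 26.47 and 91.29 CPM, and in Turned Cu 1 to 4 it was 0.5741, 0, 3.438 and 1.721 CPM. The highest copper library thus lay below the lowest of the other 12, whereas the sham and both titanium groups overlapped. The group means were 168.4 ± 116.1 in Sham, 128.3 ± 122.2 in Turned Ti, 54.74 ± 40.66 in SLA Ti and 1.433 ± 1.516 in Turned Cu (SD, n = 4 each). In Turned Cu 2, with no ACAN read, 3 counts would have been 0.585 CPM.

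Type II collagen had a different distribution. COL2A1 reached 1863 CPM in Sham 1 and 1661 CPM in Turned Ti 2, while Sham 2, 3 and 4 stood at 44.8, 84.19 and 42.58 CPM. The remaining Turned Ti libraries, 1, 3 and 4, held 19.5, 108.3 and 22.97 CPM. SLA Ti 1 to 4 held 1.88, 23.42, 5.089 and 9.754 CPM. Turned Cu 1 to 4 held 4.449, 0.5854, 5.22 and 0.5164 CPM. The next highest library, Turned Ti 3, was 17.19-fold below Sham 1. The copper libraries lay below all sham and Turned Ti libraries and overlapped those of SLA Ti, and every SLA Ti library lay below every sham library. The mean of 508.5 ± 902.9 CPM in Sham and 453 ± 806.4 in Turned Ti (SD, n = 4 each) had an SD larger than the mean, against 10.04 ± 9.491 in SLA Ti and 2.693 ± 2.493 in Turned Cu. The medians were 64.5 CPM in Sham, 65.64 in Turned Ti, 7.421 in SLA Ti and 2.517 in Turned Cu.

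Type IX collagen followed type II at a lower level. COL9A1 stood at 34.02, 2.422, 3.735 and 0.1206 CPM in Sham 1 to 4 and at 0.4851, 41.14, 3.263 and 0.7462 CPM in Turned Ti 1 to 4. In SLA Ti 1 to 4 it was 0, 0.625, 0.1542 and 0.0762 CPM, from 23 counts in all, and 3 counts in SLA Ti 1 would have been 0.115 CPM. No read was counted in any of the 4 copper libraries, where 3 counts would have been 0.382 to 0.585 CPM. Sham 4, with 3 counts, lay below each of these values and so could not be told from copper. Sham 1 and Turned Ti 2 were again the highest, and Sham overlapped both titanium groups. The means were 10.08 ± 16.04 CPM in Sham, 11.41 ± 19.86 in Turned Ti and 0.2139 ± 0.2812 in SLA Ti (SD, n = 4 each).

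SOX9 had few counts throughout. It stood at 15.61, 5.651, 13.29 and 6.754 CPM in Sham 1 to 4, and at 0.8085, 5.216, 6.598 and 2.239 CPM in Turned Ti 1 to 4. In SLA Ti 1 to 4 it was 10.97, 3.421, 2.467 and 9.677 CPM, and in Turned Cu 1 to 4 it was 0, 0, 2.419 and 0.5164 CPM. In the 2 copper libraries with no SOX9 read, 3 counts would have been 0.431 and 0.585 CPM. The copper libraries lay below all sham and SLA Ti libraries, but Turned Cu 3 stood above Turned Ti 1 and Turned Ti 4. The means were 10.33 ± 4.876 CPM in Sham, 6.635 ± 4.312 in SLA Ti, 3.715 ± 2.658 in Turned Ti and 0.7339 ± 1.15 in Turned Cu (SD, n = 4 each), so that SLA Ti ranked above Turned Ti for SOX9 and below it for the 3 matrix genes; the 2 titanium groups overlapped for all 4.

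**Figure D1:**
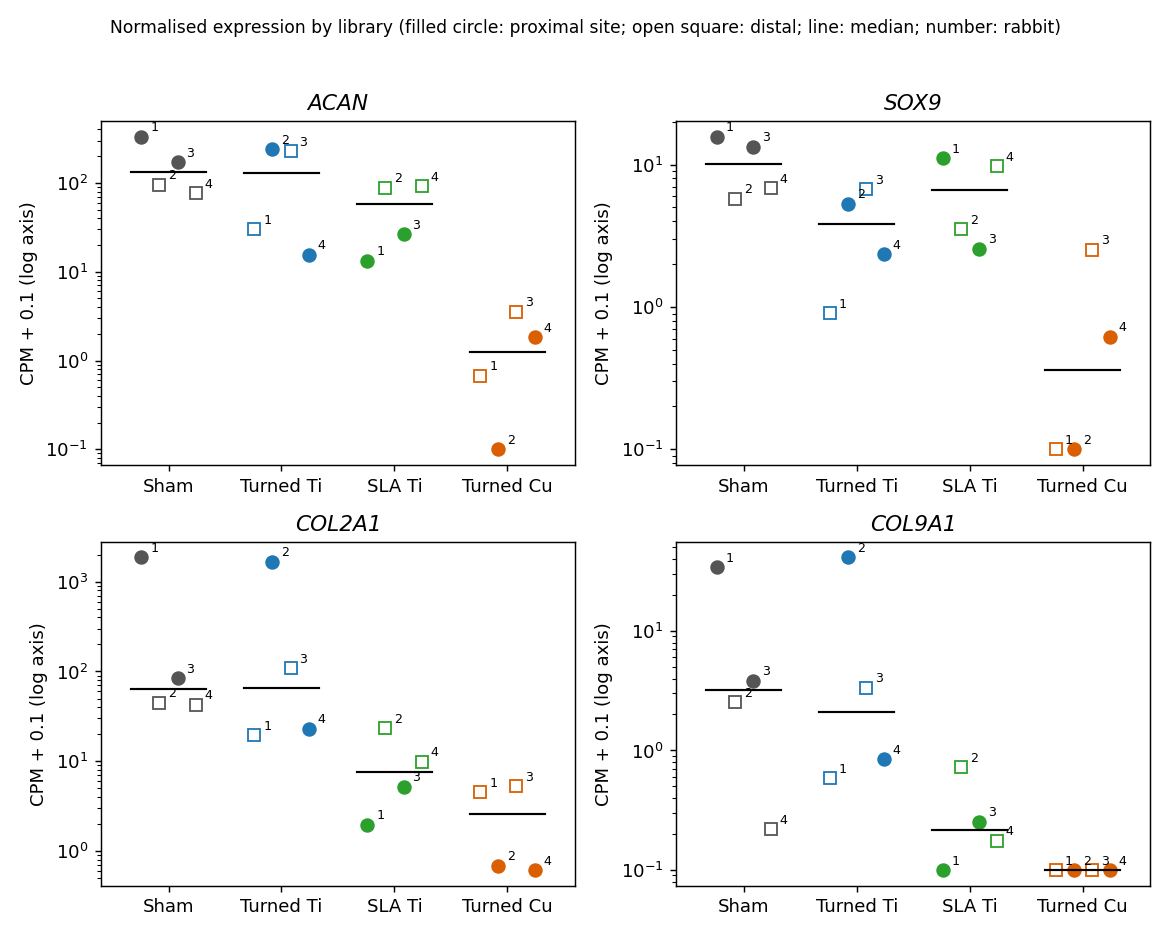
Level of each gene in each of the 16 libraries as CPM + 0.1 on a log axis, with filled circles for proximal sites, open squares for distal sites, the rabbit's number beside each point and a line at the group median. In the COL2A1 and COL9A1 panels Sham 1 and Turned Ti 2 stand apart at the top (1863 and 1661 CPM, 34.02 and 41.14 CPM), and in the ACAN panel all copper libraries lie below all others.

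At the copper implant all 4 cartilage genes fell against the sham site. ACAN fell by 6.82 ± 1.14 on the log2 scale (SE; edgeR quasi-likelihood test with Benjamini-Hochberg adjustment over 11617 genes, adjusted p = 0.000173). COL2A1 fell by 7.52 ± 1.81 (edgeR adjusted p = 0.00292) and SOX9 fell by 3.69 ± 0.89 (edgeR adjusted p = 0.00293). COL9A1, with no read in copper, was at least 86.5-fold lower than the sham mean, taking 3 counts over the whole copper group as the floor (edgeR adjusted p = 0.0179). These 4 of 4 stand beside a background in which 42.8% of all tested genes passed in this comparison (adjusted p under 0.05) and 19.6% of all tested genes were lower in copper. The median log2 change over all tested genes was -0.06. Without Sham 1 COL2A1 fell by 4.45 (edgeR adjusted p = 0.0181), and COL9A1 was at least 17.96-fold lower and no longer passed (edgeR adjusted p = 0.0645). Without Turned Cu 3, which holds 19 of the 22 SOX9 counts of the copper group, SOX9 fell by 6.09 (edgeR adjusted p = 0.00056), ACAN fell by 7.96 and COL2A1 fell by 8.19.

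Against the turned titanium implant 3 of the 4 genes fell at copper. ACAN fell by 6.43 ± 1.12 (edgeR adjusted p = 0.000295) and COL2A1 fell by 7.36 ± 1.80 (edgeR adjusted p = 0.00359). COL9A1 was at least 97.94-fold lower than the Turned Ti mean (edgeR adjusted p = 0.0167). For SOX9 the difference was -2.22 ± 0.88, just outside the threshold (edgeR adjusted p = 0.0521); with rabbit as a block it was -2.43 (edgeR adjusted p = 0.0471). In this comparison 40.7% of all tested genes passed. Without Turned Ti 2 COL2A1 fell by 4.20 (edgeR adjusted p = 0.0217), and COL9A1 was at least 12.86-fold lower and did not pass (edgeR adjusted p = 0.0721). Without Turned Cu 3 the SOX9 difference was -4.61 (edgeR adjusted p = 0.00428), that of ACAN -7.55 and that of COL2A1 -8.03.

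Against the roughened titanium implant the 2 genes that are less restricted to cartilage fell at copper and the 2 collagens did not pass. ACAN fell by 5.20 ± 1.07 (edgeR adjusted p = 0.00204) and SOX9 fell by 3.04 ± 0.88 (edgeR adjusted p = 0.0154), where 31% of all tested genes passed, 15.3% of all tested genes being higher and 15.7% lower in copper. COL2A1 differed by -1.86 ± 1.45 (approximate 95% interval, the estimate ± 1.96 SE, -4.71 to 0.98, edgeR adjusted p = 0.353). COL9A1 had 23 counts in SLA Ti and none in copper, a difference of at least 1.836-fold over the group floor that did not pass (edgeR adjusted p = 0.5). Without SLA Ti 2 the remaining SLA Ti libraries held 4 counts and lay under that floor. Without Turned Cu 3 the SOX9 difference was -5.42 (edgeR adjusted p = 0.00282) and that of ACAN -6.34.

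Among the sham and titanium sites no difference in the 4 genes passed, and neither did that of any other gene. In all 3 comparisons 0% of the 11617 genes passed in edgeR, with 290 genes at an unadjusted p under 0.05 in Turned Ti against Sham, 1660 in SLA Ti against Sham and 1048 in SLA Ti against Turned Ti; DESeq2 called 0, 353 and 105. Turned Ti and Sham differed in ACAN by -0.39 ± 0.86 (interval -2.07 to 1.29), in COL2A1 by -0.17 ± 1.35 (interval -2.81 to 2.47) and in COL9A1 by 0.17 ± 1.34 (interval -2.44 to 2.79). The signs of these 3 differences turn when single libraries are left out; without Sham 1, for instance, the COL2A1 difference was 2.99. SOX9 differed by -1.47 ± 0.74 (interval -2.92 to -0.02, edgeR unadjusted p = 0.0623, adjusted p = 1). The interval is approximate and, although it excludes 0, the edgeR test did not reach an unadjusted p under 0.05.

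The roughened implant differed from sham most in the 2 collagens, by amounts that did not pass. COL2A1 differed by -5.66 ± 1.65 (interval -8.89 to -2.43, edgeR adjusted p = 0.133) and COL9A1 by -5.38 ± 1.72 (interval -8.75 to -2.0, edgeR adjusted p = 0.172). Without Sham 1 these were -2.50 and -3.07. With no filter on low counts both passed (adjusted p = 0.037 and 0.0452 in edgeR), and in DESeq2 COL9A1 passed (adjusted p = 0.0387) while COL2A1 got no adjusted p. ACAN differed by -1.62 ± 0.88 (edgeR adjusted p = 0.427) and SOX9 by -0.65 ± 0.72 (edgeR adjusted p = 0.723). Against Turned Ti, COL2A1 in SLA Ti differed by -5.49 ± 1.63 (edgeR adjusted p = 0.294) and COL9A1 by -5.55 ± 1.73 (edgeR adjusted p = 0.332), and without Turned Ti 2 by -2.32 and -2.66. These comparisons share their sham or SLA Ti libraries and are not independent.

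**Figure D2:**
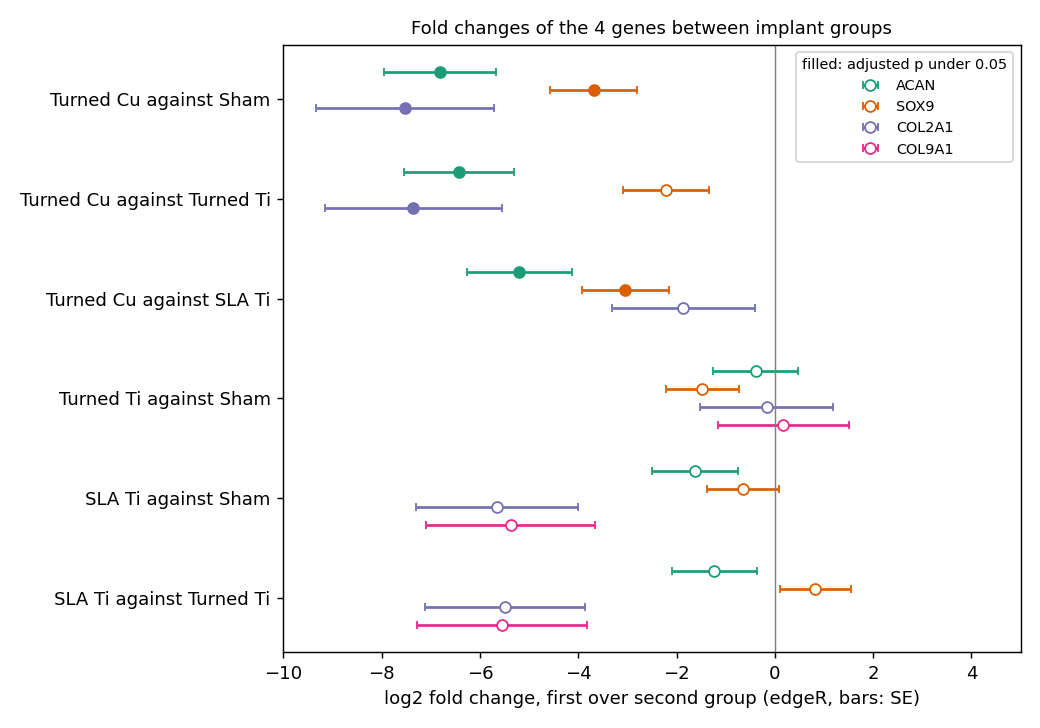
Log2 fold change of each gene between groups, first over second, from edgeR, with bars of 1 SE and filled points where the adjusted p is under 0.05. COL9A1 against copper is not drawn, because no copper library had a read. ACAN is filled in all 3 copper comparisons (-6.82, -6.43 and -5.20), and no point is filled in the 3 comparisons without copper.

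In the authors' deposited table, whose test the sources do not describe, ACAN had a log2 fold change of -6.69 (q = 1.3e-09) and SOX9 of -3.58 (q = 0.0252) in copper over sham. The same authors' deposited table gives COL2A1 a log2 fold change of -7.33 in copper over sham together with q = 1. In the authors' deposited table COL2A1 has p = 1 in 5 of its 6 comparisons, the exception being SLA Ti over copper (log2 1.91, q = 0.121). COL9A1 in SLA Ti over Sham has a log2 fold change of -5.48 with q = 0.0358 in the authors' deposited table. For COL9A1 in copper over sham the authors' deposited table gives -8.03 (q = 0.00104). In Turned Ti over copper it gives 8.3 for COL9A1 and 2.16 for SOX9 (authors' q = 0.133 for SOX9). Neither of these 2 has an authors' q under 0.05, although COL9A1 passed here in edgeR.

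The counts of COL2A1 and COL9A1 were concentrated in 2 of the 16 libraries. Sham 1 and Turned Ti 2 together held 89.37% of all COL2A1 counts and 86.48% of all COL9A1 counts, but 37.13% of the ACAN and 22.74% of the SOX9 counts. Per length, COL2A1 was at 409.89 RPKM in Sham 1 and 401.79 RPKM in Turned Ti 2, against 55.54 and 44.01 RPKM for ACAN, so that COL2A1 exceeded ACAN 7.38-fold and 9.13-fold. In the other 10 libraries without copper the ratio ran from 0.137 in SLA Ti 4 to 1.94 in Turned Ti 4, and COL2A1 was above ACAN only in that last one. The ratio of COL9A1 to COL2A1, in RPKM, was 0.0297 in Sham 1 and 0.0402 in Turned Ti 2, inside the range of 0 in SLA Ti 1 to 0.0887 in Sham 2 over the libraries without copper.

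**Figure D3:**
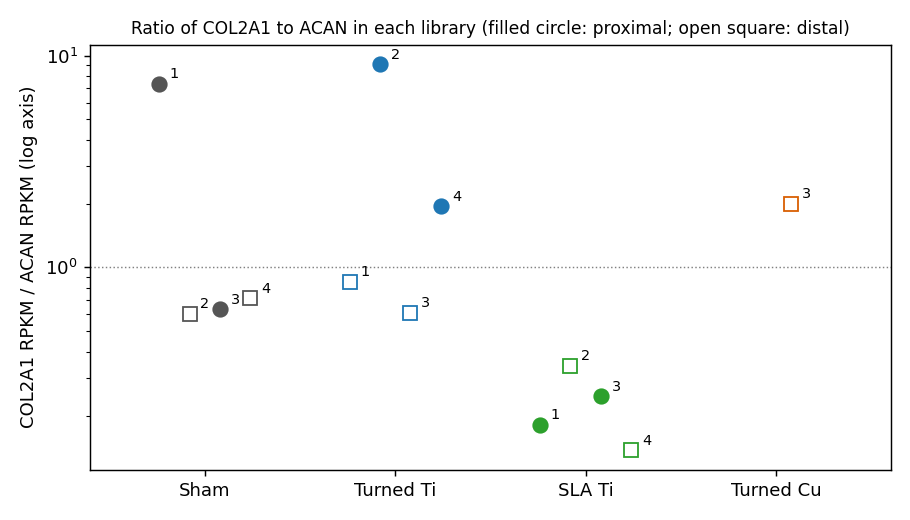
Ratio of the RPKM of COL2A1 to that of ACAN in each library on a log axis, with filled circles for proximal and open squares for distal sites, the rabbit's number beside each point and a dotted line at equal levels. The 3 copper libraries with too little ACAN for a ratio, at most 0.08 RPKM, are not drawn. Sham 1 and Turned Ti 2 stand at 7.38 and 9.13, above the range of 0.137 to 1.94 of the other libraries without copper and above Turned Cu 3 at 2. In Turned Cu 3 ACAN was at only 0.51 RPKM.

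Both libraries came from the right proximal site, of rabbits 1 and 2. The right proximal sites of the other 2 rabbits held SLA Ti 3, with 5.089 CPM of COL2A1, and Turned Cu 4, with 0.5164 CPM. The other sham proximal site, Sham 3, had 84.19 CPM and the other Turned Ti proximal site, Turned Ti 4, had 22.97 CPM. Rabbit, side, end and implant therefore meet in a single site each time and cannot be told apart for these libraries.

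Several other cartilage genes peaked in the same pair of libraries, IHH among them. IHH, the hedgehog ligand made by prehypertrophic chondrocytes, was at 5.244 CPM in Sham 1 and 4.527 CPM in Turned Ti 2 and at most 0.2868 CPM in any other library; it did not pass the filter and was not tested. PANX3, a channel of hypertrophic chondrocytes and osteoblasts, was at 3.516 and 5.413 CPM there, with 1.829 CPM in Turned Ti 3 the next highest. HAPLN1, the link protein that ties aggrecan to hyaluronan, was at 64.89 and 65.99 CPM, with 17.32 CPM in Turned Ti 3 the next. COL9A2, another type IX collagen chain, was at 56.73 and 45.91 CPM, with 27.98 CPM in Sham 3 the next. GLI1 and PTCH1, direct targets of hedgehog signalling, were at 2.264 and 2.953 CPM and at 9.951 and 9.645 CPM, also the highest of all libraries.

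Sham 1 and Turned Ti 2 were the 2 highest libraries for 3 of the 4 genes, for 4 of the 16 tested cartilage matrix genes beyond them (COL9A2, HAPLN1, MATN3 and CNMD), for 2 of 7 hypertrophic cartilage genes (PTH1R and PANX3) and for 3 of 11 chondrocyte regulators (TRPV4, GLI1 and PTCH1). The pair had been singled out by its COL2A1 and COL9A1 levels, so the count among the 4 genes follows in part from that choice. Over all tested genes, this pair of top ranks held for 192, or 1.65%. It held for 1 of 10 osteoblast genes (SP7) and for no tested gene of the fibroblast, tendon, muscle, endothelial, leukocyte, erythroid, glycosaminoglycan synthesis or aggrecan breakdown lists. The summed osteoblast markers of both libraries took ranks 5 and 1 of 16, at 16800 and 22010 CPM, and their summed leukocyte markers took ranks 16 and 13, at 87.77 and 168.7 CPM. Ribosomal RNA took 7.546% and 10.96% of their counts. The part of cell content, depth or site in their high levels was not tested.

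Across the 12 libraries without copper COL2A1 and COL9A1 varied most closely together, with a Pearson correlation of log2 CPM of 0.95 and a Spearman correlation of 0.90, and 0.84 (Pearson) without Sham 1 and Turned Ti 2. ACAN correlated with COL2A1 at 0.83 (Spearman 0.90) and with COL9A1 at 0.76 (Spearman 0.79). SOX9 correlated with ACAN at 0.52 (Spearman 0.44), and at 0.78 (Pearson) without SLA Ti 1 and Turned Ti 4, the libraries farthest from the median of ACAN. It correlated with COL2A1 at 0.29 (Spearman 0.32) and with COL9A1 at 0.26 (Spearman 0.09). Without Sham 1 and Turned Ti 2 the Pearson values of ACAN were 0.78 with COL2A1 and 0.63 with COL9A1. Those of SOX9 were then 0.44 with ACAN, 0.08 with COL2A1 and 0.04 with COL9A1. In SLA Ti 1 SOX9 took rank 3 of all 16 libraries and COL2A1 rank 14. The ratio of SOX9 to ACAN, per length, was 2.94 there and 0.077 to 0.51 in the other libraries without copper. These are descriptions over 12 sites of 4 rabbits, which share animals and scaling factors.

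The named genes most like each of the 4 over these 12 libraries, of 8800 compared by Pearson correlation of log2 CPM, included HAPLN1 for ACAN, COL2A1 and COL9A1. For COL2A1 they were COL9A1 at 0.948, HAPLN1 at 0.931, PANX3 at 0.923, C1orf198 at 0.887 and KLHL29 at 0.872. For COL9A1 they were COL2A1, FRZB at 0.908, PANX3 at 0.904, HAPLN1 at 0.889 and CENPK at 0.86; FRZB is a secreted Wnt antagonist first isolated from cartilage. For ACAN they were PRRX1 at 0.941, ITGA11 at 0.926, HAPLN1 at 0.92, PLOD1 at 0.912 and PRELP at 0.91. PRRX1 is a transcription factor of limb mesenchyme, ITGA11 an integrin subunit that binds collagen and PLOD1 a lysyl hydroxylase of collagen. For SOX9 they included GNAO1 at 0.905, COL8A2 at 0.887, NKD1 at 0.879 and HSPA2 at 0.876, none of these 4 being on the lists of cartilage genes used here. Without the 2 libraries farthest from a gene's median, the correlations were 0.65 to 0.84 for COL2A1 and 0.68 to 0.89 for COL9A1. They were 0.82 to 0.93 for ACAN and 0.74 to 0.8 for these 4 genes of SOX9. CENPK and NKD1 had few reads, 4 to 18 and 1 to 21 counts in these 12 libraries.

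Other cartilage matrix genes fell with the 4 at copper. Of 29 further matrix genes listed, 19 had a row by symbol and 16 were tested; against Sham, 11 fell, 1 rose and 4 did not pass, with a median log2 change of -4.16 (-3.85 with CNMD, which had no read in copper, at its bound) against -0.06 over all tested genes. COL11A1, a chain of the type XI collagen in cartilage fibrils that is also made in bone, fell from 387.8 to 773.9 CPM in the sham libraries to 4.098 to 28.01 CPM in copper. On the log2 scale it fell by 5.70 ± 0.92 (edgeR adjusted p = 0.000134). MATN4 fell by 6.92 ± 1.07 and MATN2 by 5.08 ± 0.85, both matrilins that link matrix fibrils (edgeR adjusted p = 9.94e-05 and 0.000172). FMOD, a small proteoglycan that binds collagen and is shared with tendon, fell by 6.00 ± 1.00 (edgeR adjusted p = 0.000175). BGN, a small proteoglycan of bone as well as cartilage, fell by 2.75 ± 0.34 (edgeR adjusted p = 2.42e-05). Without Turned Cu 3 the changes were -8.63 for FMOD, -6.93 for COL11A1 and -5.73 for MATN2, and MATN4 was at -7.57 without Turned Cu 1 and -7.60 without Turned Cu 4. Against Turned Ti 13 of the 16 fell and 1 rose, and against SLA Ti 8 fell and 1 rose, where 19.6% and 15.7% of all tested genes were lower. Against Sham 19.6% of all tested genes were lower.

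MATN1, which encodes the matrilin typical of cartilage, was the 1 that rose. It stood at 44.03, 37.4, 46.47 and 30.52 CPM in Sham 1 to 4 and at 595.9, 419, 642.7 and 450.5 CPM in Turned Cu 1 to 4. In SLA Ti it was 73.29, 67.44, 390.4 and 103.6 CPM, SLA Ti 3 also having the highest summed leukocyte markers outside copper, 1525 CPM against at most 430.4 CPM. The rise over Sham was 3.73 ± 0.53 (edgeR adjusted p = 5.26e-05). The deposited MATN1 row spans 42618 bases. In the RefSeq annotation of another assembly, mOryCun1.1, its neighbours are LAPTM5, a lysosomal membrane protein of blood cells, and PTPRU, and the deposited table has no row with the symbol LAPTM5. From which transcripts the reads of this row came was not tested, and its value is uncertain as a measure of cartilage.

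Genes of maturing cartilage also fell at copper, most of them shared with bone. Of 12 listed, 7 were tested; against Sham 5 fell, none rose and 2 did not pass, with a median of -3.75 (-3.68 with PANX3 at its bound); over all tested genes 42.8% passed and 19.6% were lower. ALPL, the phosphatase that permits mineralisation, fell by 5.07 ± 0.97 (edgeR adjusted p = 0.000483). PTH1R, the receptor of parathyroid hormone-related protein, fell by 3.91 ± 0.78 (edgeR adjusted p = 0.000693) and MEF2C, a transcription factor of hypertrophy, fell by 1.99 ± 0.37 (edgeR adjusted p = 0.000362). Without Turned Cu 3 the changes were -7.46 for ALPL and -5.11 for PTH1R. IBSP, a bone sialoprotein, fell by 3.75 ± 1.18 (edgeR adjusted p = 0.0165), and without the 3 libraries rich in ribosomal RNA it differed by -3.24 (edgeR adjusted p = 0.0549); it was at -3.11 without Sham 2 and -4.34 without Turned Cu 4. PANX3 had no read in copper and was at least 12.8-fold lower (edgeR adjusted p = 0.0159). MMP13, the collagenase of hypertrophic cartilage, differed by -0.98 ± 0.71 (edgeR adjusted p = 0.283).

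Most regulators of chondrocytes fell at copper. Of 18 listed, 11 were tested; against Sham 9 fell, 1 rose and 1 did not pass, with a median of -2.97, also with GLI1, without a read in copper, at its bound; over all tested genes 42.8% passed, 19.6% lower and 23.2% higher. SOX6, which acts beside SOX9 on cartilage genes, fell by 4.77 ± 0.85 (edgeR adjusted p = 0.000273), and SOX5, its partner, differed by -1.71 ± 0.80 (edgeR adjusted p = 0.0948). BMPR1A, a receptor of bone morphogenetic proteins, fell by 4.02 ± 0.58 (edgeR adjusted p = 5.92e-05) and PTCH1, the hedgehog receptor, fell by 3.36 ± 0.70 (edgeR adjusted p = 0.000928). ZBTB20, a repressor known from chondrocyte maturation in mice, fell by 1.83 ± 0.30, and CREB3L2, which controls secretion of cartilage matrix, by 1.67 ± 0.31 (edgeR adjusted p = 0.000138 and 0.000436). WWP2, a ubiquitin ligase whose gene hosts a microRNA of cartilage, rose by 1.36 ± 0.33 (edgeR adjusted p = 0.00272). Of 16 further SOX genes, 7 had a row by symbol and only SOX13 was tested; it fell by 3.41 ± 0.56 (edgeR adjusted p = 0.000148). Without Turned Cu 4 the changes were -4.77 for BMPR1A and -5.46 for SOX6, without Turned Cu 1 -5.43 for SOX6, and without Turned Cu 3 -4.06 for SOX13.

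**Figure D4:**
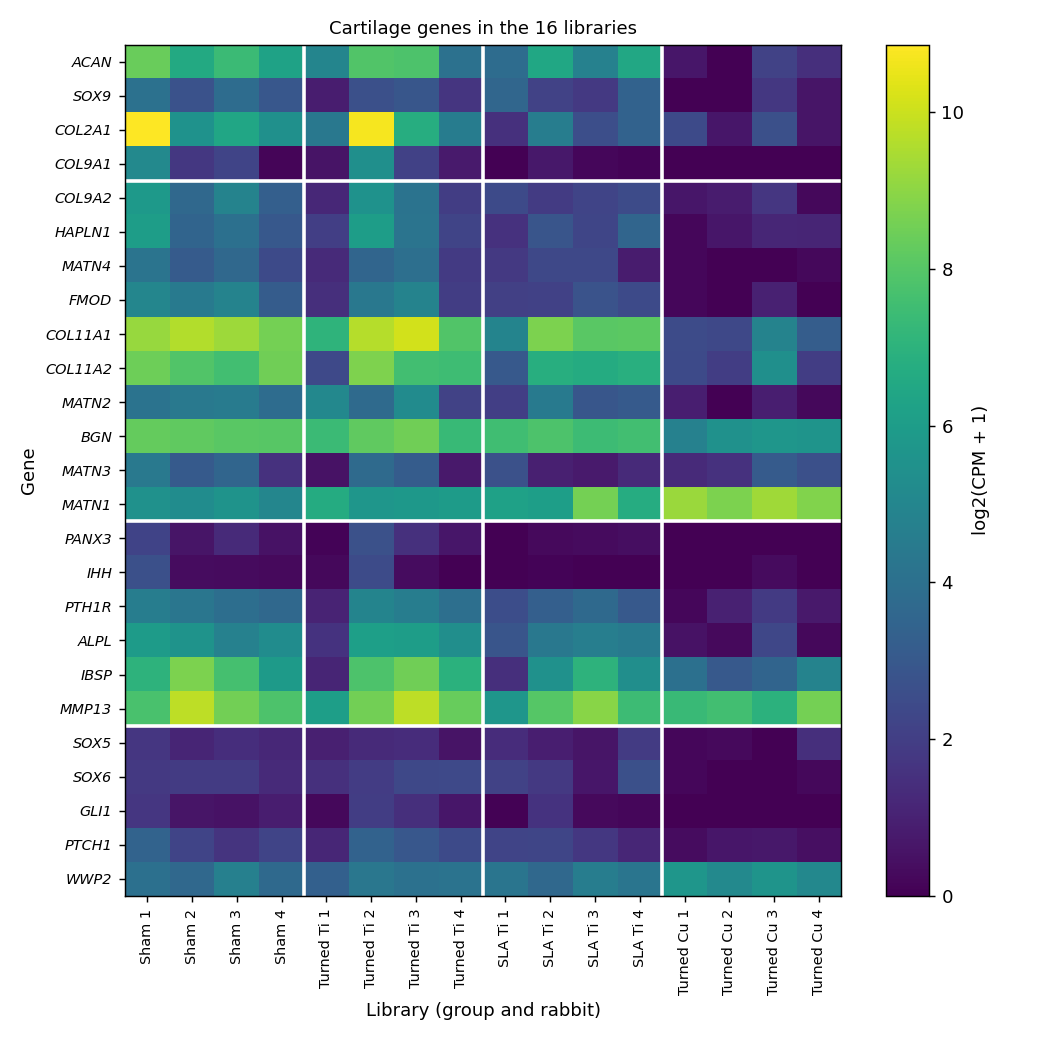
Level of the 4 genes (top block) and of 21 genes from the lists of cartilage matrix, maturing cartilage and chondrocyte regulators, as log2(CPM + 1), with 1 column per library. COL2A1, COL9A1, HAPLN1, COL9A2 and IHH are brightest in Sham 1 and Turned Ti 2, and MATN1 and WWP2 are the only rows drawn that are brightest in the copper columns.

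The enzymes that make the sugar chains of aggrecan did not move as one. All 17 that had a row by symbol, of 19 listed, were tested; against Sham 5 rose, 5 fell and 7 did not pass, with a median of -0.41, and in copper 23.2% of all tested genes were higher and 19.6% lower. XYLT1, which starts the chain on the core protein, rose by 2.57 ± 0.46 (edgeR adjusted p = 0.000275), while XYLT2, its paralog, fell by 1.95 ± 0.31 (edgeR adjusted p = 0.000121). CHST3, a chondroitin sulfotransferase, rose by 2.87 ± 0.51 (edgeR adjusted p = 0.000277) and B3GAT3, of the linker, by 1.67 ± 0.40 (edgeR adjusted p = 0.00287). PAPSS2, which supplies the sulfate donor, fell by 1.93 ± 0.38 (edgeR adjusted p = 0.000571) and CHSY3, a chondroitin synthase, by 2.17 ± 0.49 (edgeR adjusted p = 0.00191). CHSY3 was at -3.23 without Turned Cu 3 and PAPSS2 at -2.59 without Turned Cu 2. CSGALNACT2, which adds the first sugar of the chondroitin chain proper, was at 142.2 to 276.7 CPM in copper and 19.42 to 39.42 CPM in Sham, but at 349.4 CPM in SLA Ti 3, the library with the most leukocyte markers outside copper. CHST3 was also highest there among the SLA Ti libraries, at 55.67 CPM against 10.53 to 19.43 CPM. These enzymes are used by many cell types.

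Of the 9 proteases and inhibitors that act on aggrecan listed and tested, 4 fell, 1 rose and 4 did not pass at copper against Sham, with a median of -1.90. Over all tested genes 42.8% passed, 19.6% lower and 23.2% higher, so the share of the 9 that passed is near the background. ADAMTS5 and ADAMTS4, the main aggrecanases, fell by 3.12 ± 0.43 and 2.7 ± 0.54 (edgeR adjusted p = 4.19e-05 and 0.000671). ADAMTS9, of the same family, fell by 4.99 ± 0.70 (edgeR adjusted p = 4.98e-05). TIMP3, the inhibitor of aggrecanases, fell by 1.90 ± 0.67 (edgeR adjusted p = 0.0302), a call lost without Sham 2 (edgeR adjusted p = 0.0656) or without Turned Cu 1 (edgeR adjusted p = 0.0557). MMP3, stromelysin, rose from at most 0.8572 CPM in Sham to 8.899 to 36.67 CPM in copper, by 5.96 ± 0.85 (edgeR adjusted p = 5.45e-05); it was at 5.13 without Turned Cu 4, 5.32 without Sham 1, 5.37 without Sham 4 and 7.74 without Sham 3. ADAMTS9 was at -5.59 without Turned Cu 3. MMP9 differed by -1.37 ± 0.62 (edgeR adjusted p = 0.0836) and passed with no filter, in the fit of only the 2 groups, in DESeq2 and without Sham 3 (adjusted p = 0.00913 to 0.0377 in edgeR and DESeq2).

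Among sham and titanium sites, no gene of these lists passed in edgeR. In SLA Ti against Sham, 14 of the 16 tested cartilage matrix genes had a lower estimate in SLA Ti, with a median of -1.40 against -0.002 over all tested genes; 6 had an unadjusted p under 0.05, and DESeq2 called 3 (COL9A2, FMOD and MATN1, the last higher). Over all 11617 tested genes, 1660 had an unadjusted p under 0.05 in that comparison and DESeq2 called 353. In Turned Ti against Sham, 11 of the 16 matrix genes had a lower estimate, with a median of -0.31. Of these 16, 1 had an unadjusted p under 0.05, as did 290 of all tested genes, and DESeq2 called none of the 16. COL9A2 in SLA Ti, at 2.665 to 4.648 CPM, lay below all sham libraries, at 8.885 to 56.73 CPM, and differed by -2.78 ± 0.86 (edgeR adjusted p = 0.154). In the same comparison the estimate was lower in SLA Ti for 10 of 10 osteoblast and 6 of 7 fibroblast genes and for 0 of 6 leukocyte genes, of which DESeq2 called 4 (CD14, CSF3R, ITGAM and PTPRC). The part of these cells was not tested.

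Markers of other cells moved with copper as well. All 10 osteoblast genes and all 7 tested fibroblast genes fell against Sham, COL1A2 being on both lists, and all 6 tested leukocyte genes rose. Over all tested genes 19.6% were lower and 23.2% higher in copper. The call of ITGAM is lost without Sham 1, 2 or 4 or without Turned Cu 1 or 3 (edgeR adjusted p = 0.0581 to 0.0911). The summed osteoblast markers were 8367 to 21480 CPM in Sham and 255.4 to 2618 CPM in copper, and the summed fibroblast markers 7209 to 16660 CPM and 418.7 to 1652 CPM. BGLAP, osteocalcin, was at 0 in Turned Cu 1, 2 and 4. COL1A2, a chain of type I collagen, fell by 4.46 ± 0.84 (edgeR adjusted p = 0.000438; -5.79 without Turned Cu 3) and DCN, decorin, by 2.80 ± 0.45 (edgeR adjusted p = 0.000126). The summed leukocyte markers were 87.77 to 209.2 CPM in Sham and 1920 to 3202 CPM in copper, and PTPRC, the pan-leukocyte antigen CD45, rose by 3.32 ± 0.49 (edgeR adjusted p = 6.63e-05). In SLA Ti the osteoblast sum was 1885 to 12190 CPM and the leukocyte sum 231.6 to 1525 CPM. Of 6 endothelial genes 3 fell (EMCN, CDH5 and TEK), 2 rose (KDR and PECAM1, KDR not without Sham 1, at an edgeR adjusted p = 0.0511, nor without Turned Cu 3, at an edgeR adjusted p = 0.085) and 1 did not pass, and none of the 3 erythroid genes tested passed. Of these SLC4A1, the anion exchanger of red cells, differed by -3.60 (edgeR adjusted p = 0.0712) and by -3.04 with rabbit as a block, where it passed (edgeR adjusted p = 0.00748). SLC4A1 also passed with no filter, with rabbit and end of the tibia as blocks, and without Sham 3 (edgeR adjusted p = 0.00928 to 0.0393). So it did in DESeq2 (DESeq2 adjusted p = 0.0148) and without the 3 libraries rich in ribosomal RNA (edgeR adjusted p = 0.0325). Skeletal muscle markers summed to 169.2 CPM in Turned Ti 1 and to at most 3.317 CPM elsewhere, and THBS4, a tendon and muscle matrix gene, was at 146.2 CPM there and 32.3 CPM in Sham 1; neither of the 2 muscle genes tested and 1 of the 2 tendon genes tested (FMOD) passed against Sham. THBS4 passed with no filter (edgeR adjusted p = 0.0232) and with rabbit and end of the tibia as blocks (edgeR adjusted p = 0.0136). The part of these cells in the fall of the cartilage genes was not tested.

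**Figure D5:**
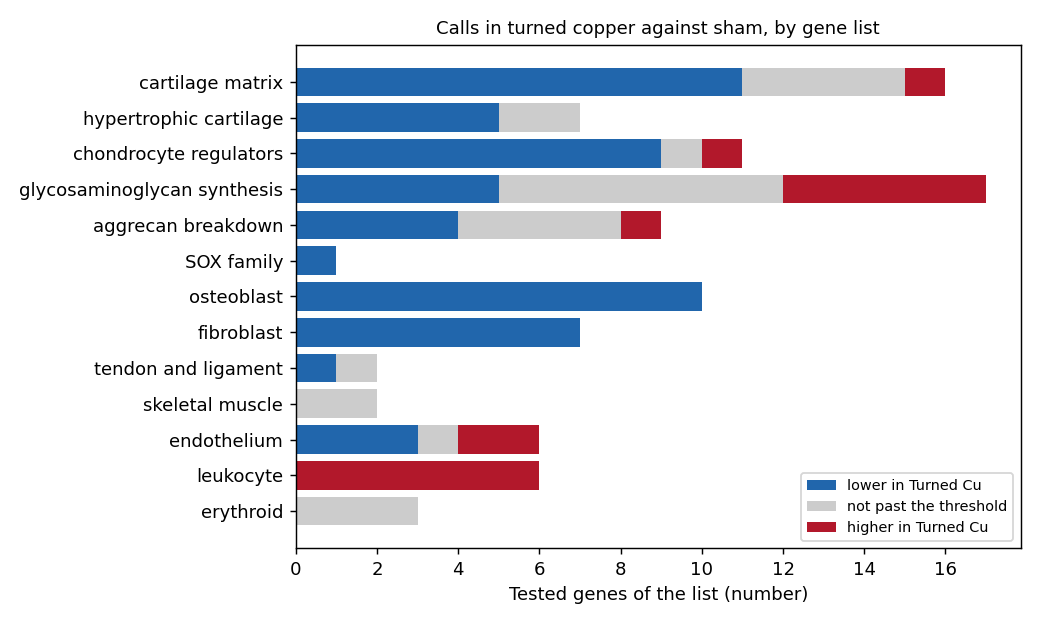
Number of tested genes of each list that were lower, higher or not past the threshold (edgeR adjusted p under 0.05) in Turned Cu against Sham. Lower calls fill the osteoblast and fibroblast bars (10 of 10 and 7 of 7) and most of the cartilage matrix bar (11 of 16), and the leukocyte bar is all higher (6 of 6). Over all tested genes 19.6% were lower and 23.2% higher in copper.

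The end of the tibia was compared over all groups at once. Proximal sites differed from distal ones by -0.40 ± 0.71 in ACAN, 0.12 ± 0.58 in SOX9, 1.00 ± 1.60 in COL2A1 and 2.57 ± 1.32 in COL9A1 (edgeR adjusted p = 0.993, 0.997, 0.993 and 0.993). In this comparison 0% of all tested genes passed in edgeR, with 479 at an unadjusted p under 0.05, and DESeq2 called 0. Without Sham 1 and Turned Ti 2 the COL2A1 estimate was -1.45 and that of COL9A1 -0.47. Within groups the direction varied. ACAN was at 170.4 and 331.5 CPM in proximal and 76.15 and 95.4 CPM in distal sham sites, but at 13.24 and 26.47 CPM in proximal and 87.96 and 91.29 CPM in distal SLA Ti sites.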

How the data were processed

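Tissue was scraped from 16 tibial sites of 4 rabbits, 4 libraries per group, and its RNA sequenced from both ends at 75 bases after preparation of stranded total RNA, per the labels' protocols. The submitters' processing notes name STAR 2.7.1a and Cufflinks 2.2.1 without a role; the counting tool, its use of strand and the genome build are not given in the sources used here. The authors deposited expected counts per gene (whole in the file), RPKM, and log2 fold changes with p-values and q-values of their own comparisons. The 16 TPM columns of the same table were not used. Groups were taken from the labels' implant type and replicate numbers from the labels' rabbit.

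Counts were fitted with edgeR 4.0.16 (R 4.3.3; filterByExpr with a minimum count of 10, TMM scaling, 1 mean per group over all 16 libraries, quasi-likelihood test), with p-values adjusted over the 11617 genes kept. CPM values use the TMM-scaled library sizes; correlations use log2 CPM with a prior count of 2. The end of the tibia was tested beside the group. A gene with no read in a group was set at 3 counts over that group for a lower bound; such floors cover counting error only. The tests were tried on simulated counts with planted changes. Alternatives were RLE scaling, DESeq2 1.42.0, no filter, leaving out ribosomal RNA and mitochondrial genes, rabbit as a block (also with the end of the tibia), only the groups compared, and leaving out each library. Further alternatives, chosen after seeing the data, left out Sham 1 with Turned Ti 2, and the 3 libraries with over 40% ribosomal RNA. Unless single libraries are named, ranges over left-out libraries also include the fit without Sham 1 and Turned Ti 2. The replicate number is the rabbit, so it pairs the sites by animal. Deviations from the group means correlated at -0.17 to 0.32 (median 0.11) over 24 same-rabbit pairs. Over 72 different-rabbit pairs they correlated at -0.56 to 0.43 (median -0.02). No pair of libraries held identical values.

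The 4 genes and the 13 gene lists were chosen with earlier results of these data known. From each list up to 6 tested genes of smallest p in Turned Cu against Sham were named, with up to 3 in other comparisons, and up to 5 genes most like each of the 4, of which 1 is not reported here. COL1A2, DCN and PTPRC were named as markers of other cells. The log2 form of Dixon's test was added after seeing the data. IHH, SOX5, GLI1, CNMD and MATN3 fall outside this rule and were named after their values were seen. Of 154 listed genes 115 had a row by symbol, and COL10A1 and COMP are not analysed here.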

Additional observations from a re-analysis of the deposited data

Results flagged for a closer look

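Of 15 sets of the 4 libraries of a group examined, 1 set for each gene and group with any read, 4 held a library far from the other 3 by Dixon's test on CPM; chance flags about 1 in 20 where values are not skewed. They are 2 libraries in 2 genes that vary together, not 4 independent sets. COL2A1 was at 1863 CPM in Sham 1 and at 1661 CPM in Turned Ti 2, and COL9A1 at 34.02 CPM in Sham 1 and at 41.14 CPM in Turned Ti 2. On log2 CPM the ratios of gap to range were 0.82, 0.614, 0.392 and 0.571 (COL2A1 in Sham and Turned Ti, COL9A1 in Sham and Turned Ti), all under the critical value, so that no set stood apart on that scale. Both libraries came from right proximal sites.

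In 3 cases every proximal site of a group lay above, and every proximal site of another group below, its distal sites. The 3 cases share the sham libraries, and how many of all tested genes show such opposite order was not counted. For ACAN the proximal over distal change was 1.55 in Sham and -2.17 in SLA Ti, a difference of 3.72 ± 1.68 on the log2 scale (SE; edgeR interaction term over 2 proximal and 2 distal sites of each group, adjusted p = 1). For COL2A1 the changes were 4.48 in Sham and -2.26 in SLA Ti, a difference of 6.74 ± 2.2 (edgeR adjusted p = 1). For COL2A1 in Turned Cu the change was -3.12, and Sham and Turned Cu differed by 7.6 ± 2.44 (edgeR adjusted p = 0.242). The change in Turned Cu rests on 3 counts in each proximal library, Turned Cu 2 and 4. The distal ones, Turned Cu 1 and 3, held 31 and 41 counts. This interaction was chosen after seeing the data. None of the 3 differences passed; in each of these pairs of groups 0 of 11617 genes passed in edgeR, with 309 genes (Sham and SLA Ti) and 1587 genes (Sham and Turned Cu) at an unadjusted p under 0.05. Within a group the proximal and distal sites came from different rabbits, so end and animal cannot be told apart there.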

How the results depend on the processing

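The falls of ACAN at copper against all 3 groups, of SOX9 against Sham and SLA Ti and of COL2A1 against Sham and Turned Ti kept their direction and their call under every alternative run that gave a value; DESeq2 gave COL2A1 no adjusted p in the 6 group comparisons, and COL9A1 was filtered out of the fits of only the groups compared against copper. For ACAN against Sham, leaving out libraries gave -7.96 to -6.27. For COL9A1, whose fitted value against copper depends on the prior count and is no bound, leaving out libraries gave -10.82 to -8.11 against Sham, with the call lost without Sham 1 (-8.15), and -11.04 to -7.68 against Turned Ti, with the call lost without Turned Ti 2 (-7.68). The SOX9 difference between copper and Turned Ti crossed the threshold under RLE scaling (-2.26), no filter (-2.44), without ribosomal RNA and mitochondrial genes (-2.29), with rabbit as a replicate block (-2.43) and in DESeq2 (-2.31), and ran from -4.61 to -1.78 when libraries were left out, crossing it without Turned Ti 1, Turned Ti 4 or Turned Cu 3. SLA Ti against Sham crossed it for COL2A1 with no filter (-5.64) and for COL9A1 with no filter (-5.36) and in DESeq2 (-5.57). The block changed no other call of the 4 genes; among other named genes in copper against Sham it changed that of SLC4A1, and with the end of the tibia also that of THBS4. The 1 cartilage matrix gene higher in copper than in SLA Ti, MATN1, was not called (0) in the fit of only those groups, without the 3 libraries rich in ribosomal RNA, and without Turned Cu 1, Turned Cu 3, SLA Ti 2 or SLA Ti 4 (0 to 1). The cause was not tested.

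Signs turned only in differences that never passed. In Turned Ti against Sham, ACAN ran from -0.88 to 0.15 and COL2A1 from -3.33 to 2.99 when libraries were left out; COL9A1 ran from -2.72 to 2.48, and was -0.16 with the rabbit block, -0.15 with the block and the end of the tibia, and -0.44 without Sham 1 and Turned Ti 2. In proximal against distal sites, SOX9 ran from -0.15 to 0.50 when single libraries were left out. It was -0.09 in DESeq2 and -0.16 without both Sham 1 and Turned Ti 2. COL2A1 ran from -0.97 to 1.85 when single libraries were left out and was -1.45 without both. COL9A1 was at most 3.63 when single libraries were left out and turned only without both, at -0.47. TNNT3, a muscle gene, in copper against Turned Ti was 0.03 with the rabbit block, 0.08 with the block and the end, and ran from -1.69 to 1.60 when libraries were left out, the highest without Turned Ti 1. Over all genes, SLA Ti against Sham went from 0 calls to 195 with no filter, 353 in DESeq2, and 32 and 198 without SLA Ti 1 and SLA Ti 2. SLA Ti against Turned Ti went from 0 to 87 with no filter, 105 in DESeq2, 1 with the block and 36 without SLA Ti 2. Few counts limit COL9A1 in SLA Ti and all 4 genes in copper, where ACAN had 41 counts, SOX9 22, COL2A1 78 and COL9A1 0. The copper group was the shallowest, while the SLA Ti libraries had scaled sizes of 13123441 (SLA Ti 4) to 30399306 (SLA Ti 2).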
